A study of Homo sapiens with 39 samples.

Results

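The comparison described here set 18 RNA-seq libraries of HCC1428-LTED cells treated with an estrogen receptor ligand at 300 nM against 18 libraries treated at 30 nM, 36 of the 39 libraries of the series. HCC1428-LTED is a breast cancer cell line that the labels describe as long term estrogen deprived. Members were chosen by the dose in the sample labels, and ligand was kept as a blocking factor. Each of the 6 ligands had 3 libraries at each dose. Fulvestrant is an estrogen receptor degrader in clinical use, and SAR439859, GDC-0810 and AZD9496 are further degraders of the receptor by the labels. GDC-SAR and AZD-SAR are hybrids that carry the side chain of SAR439859 on the GDC-0810 and the AZD9496 scaffold. All cells were kept in IMEM with 5% charcoal-stripped serum, which is depleted of steroid hormones, and were exposed for 24 h. The 3 DMSO libraries were not part of the comparison, and their levels are given only as background. All libraries came from a single cell line. The labels do not say whether the 3 libraries of a group came from separate cultures, so that p-values measure the spread between these libraries, which may be technical.

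Estrogen receptor alpha, encoded by ESR1, is a ligand-activated transcription factor that drives growth of luminal breast cancer. Degraders bind its hormone pocket and bring the receptor to the ubiquitin and proteasome system, while the hormone-induced genes lose their activator. Once a ligand occupies nearly all of its receptor, more ligand can add little through that receptor, and a higher dose is then a way to look for further or off-target responses. The question asked of these data was which transcripts differed when the dose was raised 10-fold, whatever the ligand.

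No transcript passed the test for a dose difference shared by the 6 ligands. Of 14404 genes with a mean of at least 1 TPM (the share of a library's transcripts, corrected for gene length), 0 (0%) had an adjusted p below 0.05 in limma's moderated test on log2(TPM + 1), and the smallest adjusted p was 0.67. At an unadjusted p below 0.05 there were 869 genes (6.03%), of which 781 (5.42%) had the lower level at 300 nM and 88 (0.611%) the higher. The excess on the lower side depended on the scaling. After median-of-ratios scaling, which sets the typical gene of each library to the same level, the counts were 256 lower (1.78%) and 241 higher (1.67%), 497 in all (3.45%), and again 0 genes (0%) were called. The median log2 difference, 300 minus 30 nM, was -0.05 over all genes as deposited and 0.00 after scaling, and 70.4% and 49% of genes had the lower level at 300 nM. The same sign in all 6 ligands was seen for 627 genes on the lower side and 80 on the higher side as deposited, and for 198 and 219 after scaling.

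**Figure D1:**
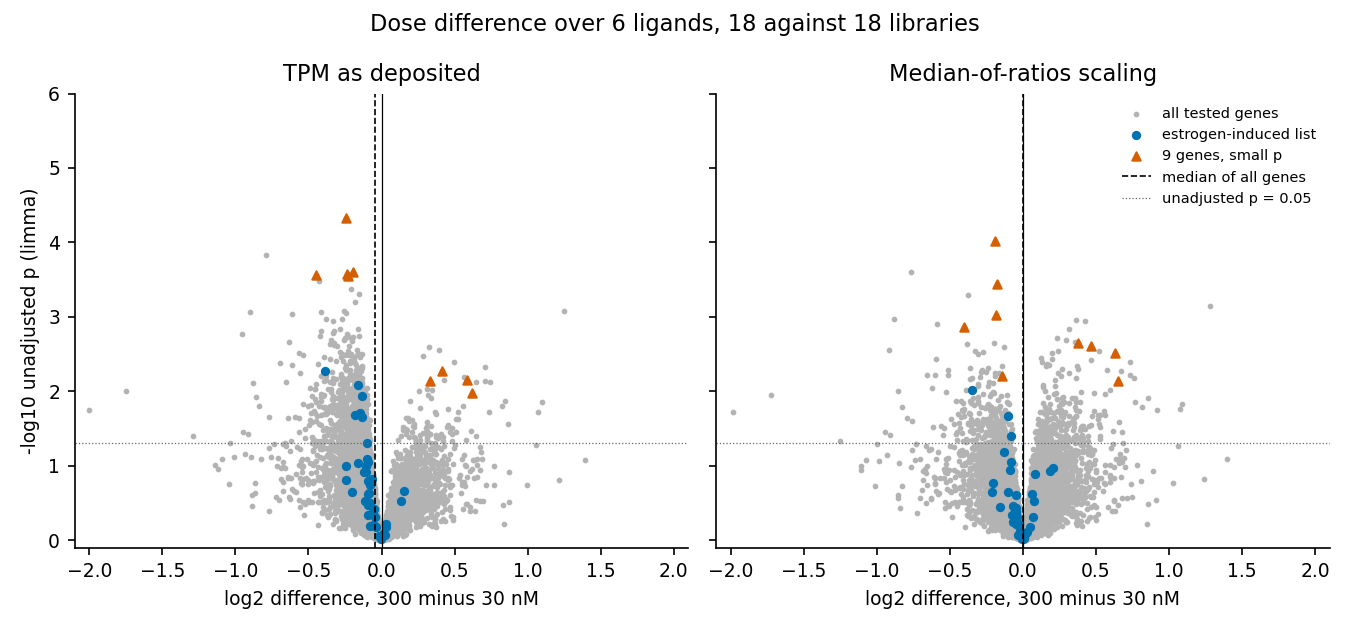
Log2 difference in log2(TPM + 1) between 300 and 30 nM over 6 ligands (x axis) against the -log10 of the unadjusted limma p (y axis, dotted line at 0.05) for 14404 genes, with the deposited TPM on the left and after median-of-ratios scaling on the right. As deposited, the cloud leans to the left of 0 (dashed median at -0.05), and the lean is absent after scaling. Triangles are the 9 genes with small p values described by name below, 5 lower and 4 higher at 300 nM, and blue points are the estrogen-induced list.

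The intervals show how large a shared dose difference the data leave room for. The 95% interval extended a median of 0.199 to either side on the log2 scale and lay wholly within ±0.5 for 12225 genes (84.9%) and within ±1 for 14070 (97.7%). The share within ±0.5 was 69.2% of the 4787 genes under 5 TPM, 88.6% of those from 5 to 20 TPM, 96.5% from 20 to 100 TPM and 97.8% above 100 TPM. Large shared differences on the log2(TPM + 1) scale were therefore outside the interval of most genes, while for genes at low TPM the limits were wide. That scale also understates the change of genes at low TPM, so their intervals do not bound the fold change in TPM itself. The ligands themselves differed in the same fit, with 3099 of 14404 genes (21.5%) called in an F test among the 6 ligands, added after the data were seen. For the median gene, ligand took 23.3% of the variation, dose 1.35%, the dose by ligand term 9.43% and the spread within groups 61.4%. These terms hold 14.3%, 2.86%, 14.3% and 68.6% of the degrees of freedom.

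**Figure D2:**
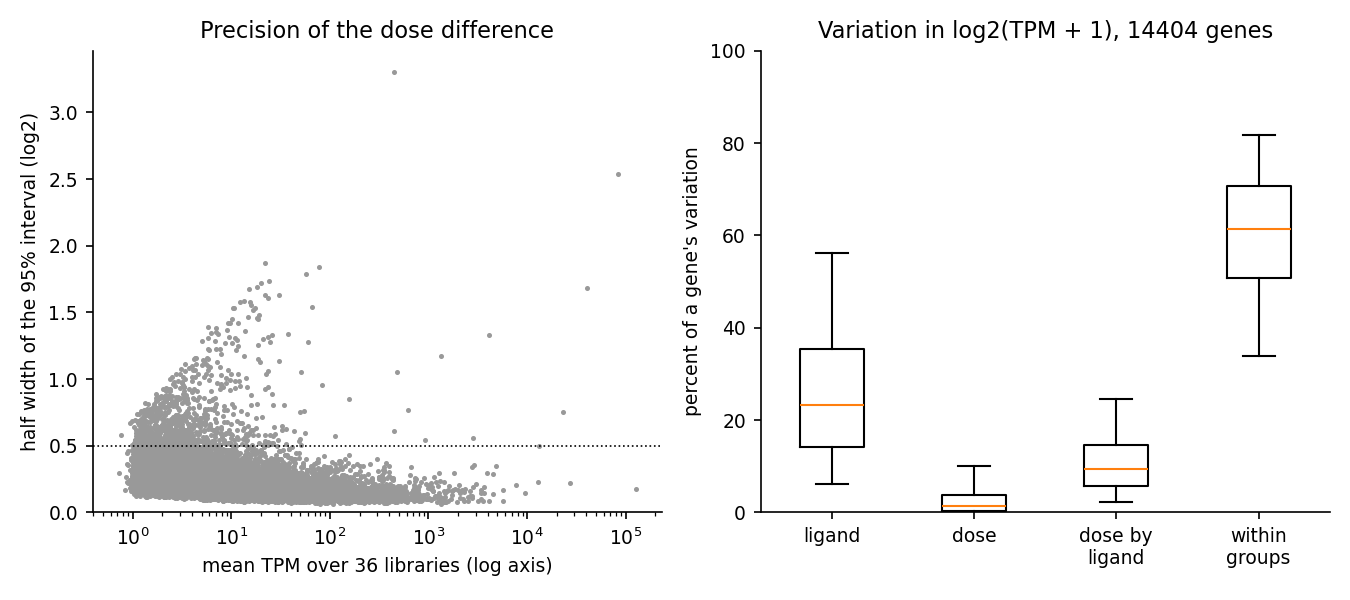
Left, extent of the 95% interval to either side of the dose difference (y axis, log2) against mean TPM over 36 libraries (x axis, log scale) for each tested gene, with a dotted line at 0.5. Right, percent of each gene's variation in log2(TPM + 1) that went with ligand, dose, dose by ligand and the spread within groups (line, median; box, quartiles; whiskers, 5th to 95th percentile). The dose box, with a median of 1.35%, lies lowest.

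The libraries carried a luminal profile at both doses. Of 19 luminal markers, 18 averaged at least 1 TPM. Their summed level ran from 8003 to 14760 TPM at 30 nM and from 8041 to 14666 at 300 nM. Of 11 basal and mesenchymal markers in the table only FN1 averaged at least 1 TPM over both doses, KRT5 averaged 0.0733 and 0.195 TPM, and the sum was 26.6 to 58.1 TPM at 30 nM and 28.96 to 62.7 at 300 nM. Of 15 stromal, endothelial and immune markers, COL1A1 and CD68 averaged at least 1 TPM and the sum was 14.6 to 29.7 TPM at 30 nM and 16.2 to 32.5 at 300 nM. The 3 SAR439859 libraries at 30 nM stood apart from each other, with a mean within-group correlation of 0.907 against 0.941 to 0.967 in the other groups, and replicate 3 listed only 15818 symbols above 0. MALAT1, an abundant nuclear RNA, was listed at 0 in SAR439859 30 nM replicate 1 and AZD-SAR 300 nM replicate 2, so that a 0 in this table can be a failed estimate. Of 9628 genes averaging at least 5 TPM, 226 were listed at 0 in some library. Leaving out the 3 SAR439859 30 nM libraries, or the libraries with MALAT1 or MTATP6P1 at 0, again gave 0 called genes. Within each ligand the 30 nM libraries carried lower library numbers than the 300 nM ones, so dose and the order of numbering cannot be told apart.

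TPM is a share of a library, and the mean share held by the most abundant symbols was somewhat higher at 300 nM. The 100 most abundant symbols held 46.1 to 56.1% (median 53.3%) of TPM at 30 nM and 48.8 to 55.8% (median 54.6%) at 300 nM. The ranges overlapped, the mean was higher at 300 nM in 6 of 6 ligands, and the difference was 1.57 percentage points (two-sided permutation test with doses exchanged within ligands, p = 0.0239, adjusted p = 0.0478 over the 2 library measures tested). Without AZD9496 30 nM replicate 1 the difference was 1.43 points (permutation p = 0.0515, not adjusted). Without SAR439859 30 nM replicate 1 it was 1.05 points (permutation p = 0.0464, not adjusted). The latter library held the lowest share, 46.1%, and listed MALAT1 and MTATP6P1 at 0, which may be failed estimates. AZD-SAR 300 nM replicate 2, with MALAT1 at 0, held 50.9%. A larger share for these symbols leaves less TPM for all others, and as deposited 70.4% of genes had the lower level at 300 nM. The part of the abundant symbols in that lean was not tested. SNORA76C, the most abundant symbol and a small nucleolar RNA by its name, ranged from 61785 to 187939 TPM (median 128260) at 30 nM and from 83611 to 186682 (median 139902) at 300 nM. Its log2 difference was 0.11 (interval -0.07 to 0.29), which was not called (adjusted p = 0.85), and it was picked after its level was seen. The number of symbols above 0 was 22260 ± 2333 at 30 nM and 22274 ± 2083 at 300 nM (mean ± SD, n = 18 each, permutation p = 0.983).

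Genes of the receptor pathway came next, beginning with the receptor. ESR1 (chromosome 6, 151656691 to 152129619, GRCh38) ranged from 302.4 to 510 TPM (median 396) at 30 nM and from 250.1 to 568 TPM (median 378) at 300 nM, against 409 to 459 TPM in the DMSO libraries. The doses overlapped, and the log2 difference was -0.03 (SE 0.0637, interval -0.16 to 0.10, adjusted p = 0.954). It was negative for 3 ligands and positive for 3, from -0.19 with AZD-SAR to 0.10 with GDC-0810.

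PGR, the gene for the progesterone receptor and a classical estrogen-induced gene (chromosome 11, 101029624 to 101130524), ranged from 1.99 to 9.33 TPM (median 3.90) at 30 nM and from 1.49 to 10.0 (median 3.47) at 300 nM, with 29.2 to 47.0 TPM in DMSO. Both doses lay below all DMSO libraries and overlapped each other, with a log2 difference of -0.09 (SE 0.0905, interval -0.27 to 0.09, adjusted p = 0.874). Within ligands PGR leaned in opposite directions. It averaged 2.87 ± 1.25 TPM at 30 nM and 1.69 ± 0.179 at 300 nM with SAR439859, where the 300 nM libraries lay below all 30 nM ones. With AZD9496 it averaged 6.37 ± 0.705 and 7.96 ± 1.19 TPM (SD, n = 3 each), and the doses overlapped. The log2 differences were -0.48 (interval -0.89 to -0.07) and 0.28 (-0.13 to 0.69), neither called. The smallest PGR group mean, at 300 nM SAR439859, and the largest, 9.42 TPM at 300 nM GDC-0810, thus belonged to the same dose and different ligands, and ligand took 86.4% of the variation in PGR against 0.459% for dose.

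GREB1, an estrogen-induced receptor coregulator gene (chromosome 2, 11482341 to 11642788), ranged from 0.764 to 8.86 TPM (median 1.44) at 30 nM and from 0.636 to 7.71 (median 1.60) at 300 nM, with 17.9 to 20.7 in DMSO. Its log2 difference was -0.11 (interval -0.34 to 0.11, adjusted p = 0.867), negative for 4 ligands. TFF1, which encodes a secreted trefoil peptide (chromosome 21, 42362282 to 42366594), ranged from 477 to 1230 TPM (median 714) at 30 nM and from 465 to 1180 (median 711) at 300 nM, with 2262 to 3471 in DMSO. Its log2 difference was -0.09 (interval -0.25 to 0.06, adjusted p = 0.853). For both genes the doses overlapped almost fully.

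CCND1, the gene for cyclin D1, which carries cells from G1 into S phase (chromosome 11, 69641087 to 69654474), ranged from 62.2 to 235 TPM (median 107) at 30 nM and from 67.4 to 234 (median 98.6) at 300 nM. Its log2 difference was -0.08 (interval -0.20 to 0.04, adjusted p = 0.842). The spread of CCND1 followed the ligand: with AZD9496 it averaged 221 ± 13.1 TPM at 30 nM and 213 ± 18.4 at 300 nM. With SAR439859 the values were 86.5 ± 27.3 and 74.0 ± 5.69 TPM, and with fulvestrant 99.4 ± 11.5 and 88.7 ± 12.4. A group at 30 nM of one ligand could thus lie far from another ligand at the same dose while staying close to its own 300 nM group.

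MYC, a growth-promoting transcription factor gene (chromosome 8, 127735434 to 127741434), had the clearest lean of the genes read in every case. It ranged from 19.2 to 33.97 TPM (median 23.8) at 30 nM and from 15.01 to 31.4 (median 21.5) at 300 nM, with 63.8 to 68.6 in DMSO. The doses overlapped. The log2 difference was -0.16 (SE 0.0560, interval -0.27 to -0.04), negative in 5 of 6 ligands, and was not called (unadjusted p = 0.00813, adjusted p = 0.814). After median-of-ratios scaling it was -0.10. IL20, a cytokine gene and the estrogen-induced member with the smallest p, ranged from 0 to 11.2 TPM (median 2.70) at 30 nM and from 0.347 to 11.3 (median 1.69) at 300 nM, with 66.6 to 68.5 in DMSO. The log2 difference was -0.38 (interval -0.65 to -0.12, adjusted p = 0.814), negative in 6 of 6 ligands. The gene was chosen by its p for dose, so these signs describe it only. IL20 was listed at 0 in SAR439859 30 nM replicate 3, without which the difference was -0.46 (adjusted p = 0.447).

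**Figure D3:**
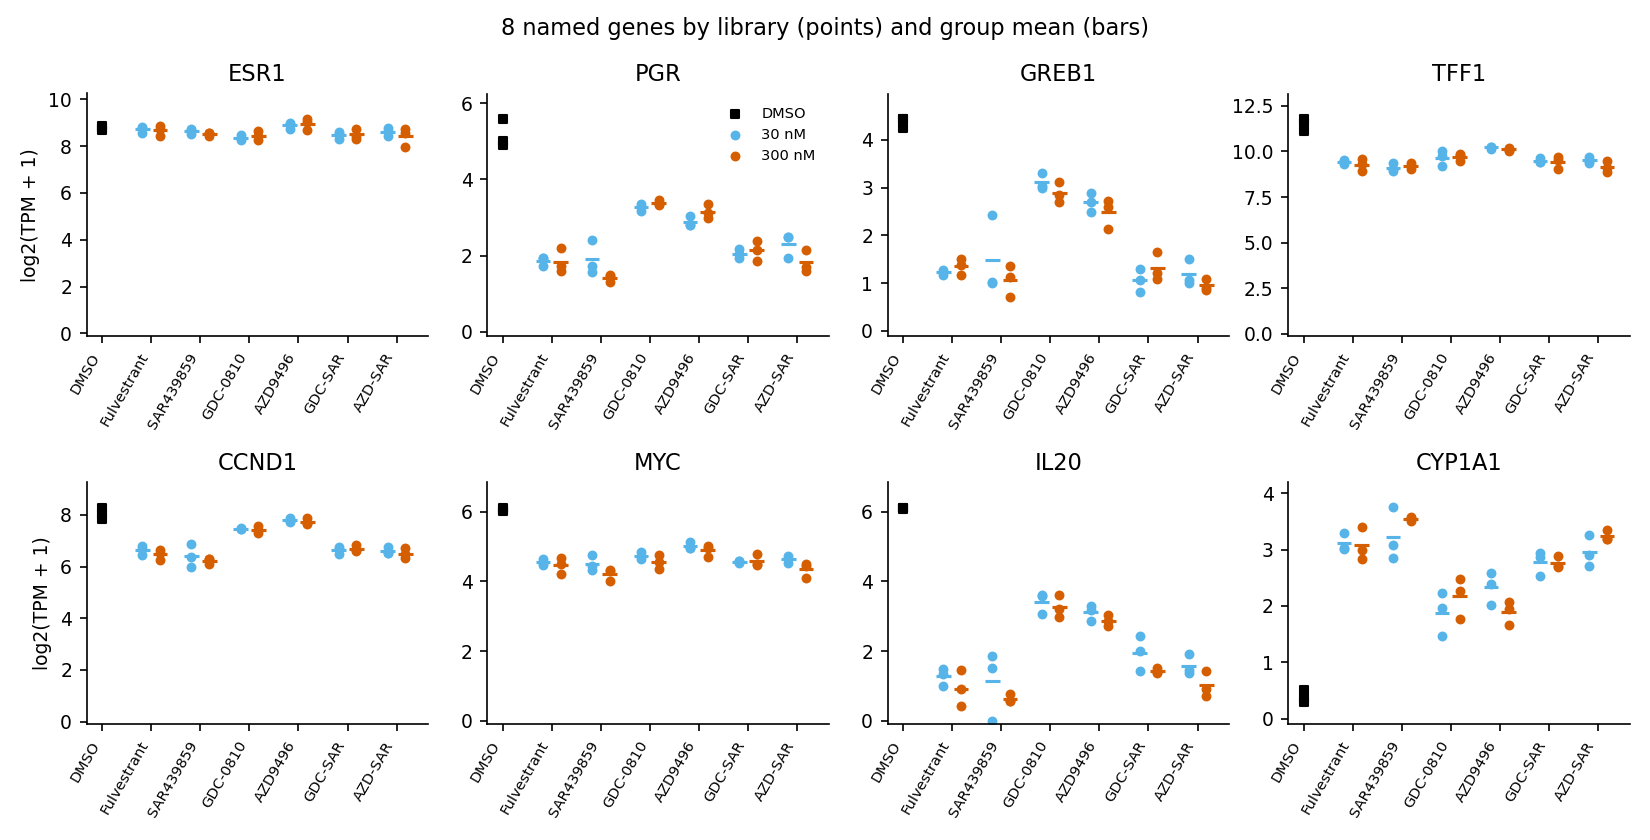
Level in log2(TPM + 1) (y axes, own range for each gene) of 8 genes in every library (points) with group means (bars), by ligand (x axis) at 30 nM (blue) and 300 nM (orange) beside DMSO (black). For PGR, GREB1, CCND1 and IL20 the group means of GDC-0810 and AZD9496 stand above those of the other ligands, while the 2 doses of a ligand lie side by side.

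No gene of the estrogen-induced list was called between doses. Of its 44 genes 40 were measured, and 0 of the 40 passed limma's test (0% of all genes). At an unadjusted p below 0.05, 7 of the 40 were lower at 300 nM and 0 higher, beside 5.42% and 0.611% of all genes. After scaling the counts were 3 and 0, beside 1.78% and 1.67% of all genes. The 7 were IL20, MYC, CA12, CELSR2, SLC7A5, HSPB8 and FKBP4, named after their values were seen. The median difference was -0.09 (all genes -0.05) and -0.04 after scaling (all genes 0.00). The interval lay within ±0.5 for 36 of the 40. In the test among ligands 33 of the 40 were called, beside 21.5% of all genes, and the range of the 6 ligand means had a median of 1.03 on the log2 scale. Over the list, ligand took a median of 83.1% of a gene's variation and dose 0.853%, beside 23.3% and 1.35% for the median of all genes. The list was chosen with earlier results of these data known, so its contrast with all genes describes the list only. CA12, a carbonic anhydrase gene, averaged 245 ± 44.7 TPM at 30 nM and 225 ± 47.9 at 300 nM (SD, n = 18 each, log2 difference -0.13, adjusted p = 0.814). The DMSO libraries stood at 209 to 232 TPM (mean 218), so neither dose mean of CA12 lay below the DMSO mean.

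The mean log2(TPM + 1) of that list gives the same picture by group. With GDC-0810 it was 4.95 ± 0.0273 at 30 nM and 4.84 ± 0.0684 at 300 nM, and with AZD9496 5.02 ± 0.0428 and 4.94 ± 0.0961. With fulvestrant it was 4.06 ± 0.0108 and 3.99 ± 0.0992, with SAR439859 3.92 ± 0.173 and 3.86 ± 0.0308. The hybrids gave 4.16 ± 0.0160 and 4.02 ± 0.0511 for GDC-SAR and 4.09 ± 0.0471 and 4.03 ± 0.0993 for AZD-SAR. The DMSO libraries stood at 5.57 ± 0.0899. Both doses of every ligand lay below DMSO, and the mean at 300 nM was the lower of the pair for each ligand. No test was made of these list means, and the median of all genes was lower at 300 nM too. Estrogen-repressed genes, a list of 15 that includes the pro-apoptotic gene BMF and the tumour suppressor gene PDCD4, had 0 members called, 0 at an unadjusted p below 0.05 and all 15 intervals within ±0.5, with a median of -0.04 and, after scaling, 0.01. The mean log2(TPM + 1) of this list had a median of 4.93 at each dose and 4.26 in DMSO. PDCD4 itself went the other way, with means of 800 TPM at 30 nM, 758 at 300 nM and 964 in DMSO.

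No gene of the proliferation lists was called. MKI67, a marker of cycling cells, ranged from 35.3 to 84.1 TPM (median 49.1) at 30 nM and from 35.3 to 64.5 (median 44.1) at 300 nM. Its log2 difference was -0.10 (interval -0.23 to 0.02, adjusted p = 0.829), negative in 6 of 6 ligands. Of 36 mitosis genes 0 were called, 5 were lower and 0 higher at an unadjusted p below 0.05 (5.42% and 0.611% of all genes; after scaling 0 and 0), and all 36 intervals lay within ±0.5. FOXM1, a transcription factor of the G2 and M phases, averaged 62.8 ± 12.6 TPM at 30 nM and 58.1 ± 13.2 at 300 nM (log2 difference -0.12, adjusted p = 0.814). Of 38 DNA replication genes 0 were called. At an unadjusted p below 0.05, 3 were lower and 0 higher, beside 5.42% and 0.611% of all genes. The 3 were the helicase subunit genes MCM5 and MCM6 and the ubiquitin ligase adaptor gene DTL. After scaling 2 were lower, MCM5 and DTL, and 0 higher, beside 1.78% and 1.67% of all genes. MCM5 ranged from 4.56 to 14.2 TPM (median 6.40) at 30 nM and from 2.83 to 14.9 (median 5.06) at 300 nM, against 21.2 to 24.7 in DMSO. The overlap was wide, and the log2 difference was -0.24 (interval -0.41 to -0.07). The 38 replication genes had 34 called among ligands and the 36 mitosis genes 20, beside 21.5% of all genes. Both lists were chosen with earlier results of these data known, so these counts describe the lists only. The list medians of the dose difference were -0.07 for replication and -0.06 for mitosis as deposited, and -0.02 and 0.00 after scaling.

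Pathways through which a higher dose could act outside the receptor were also read. CYP1A1, a drug-metabolising enzyme gene induced by the aryl hydrocarbon receptor, ranged from 1.75 to 12.4 TPM (median 6.27) at 30 nM and from 2.17 to 10.9 (median 6.27) at 300 nM, with 0.229 to 0.423 in DMSO. Every treated library lay above the DMSO libraries and the doses overlapped, with a log2 difference of 0.07 (interval -0.13 to 0.26, adjusted p = 0.923). Of the 4 measured genes of this receptor's list 0 were called. Another of them, TIPARP, which encodes a mono-ADP-ribosyltransferase, was among the genes with the smallest p on the lower side and is described below. Oxidative stress (11 measured), metallothionein (4), endoplasmic reticulum chaperone (18), integrated stress response (13), cytosolic heat shock (13) and p53 target (15) genes had 0 called each. Together these lists held 3 members with an unadjusted p below 0.05, all lower at 300 nM: OSGIN1, HSPA8 and CDKN1A. Over all genes 5.42% were lower and 0.611% higher at that threshold. After median-of-ratios scaling the unadjusted limma p was 0.0973 for OSGIN1, 0.202 for HSPA8 and 0.0051 for CDKN1A.

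CDKN1A, which encodes the cell cycle inhibitor p21, ranged from 3.22 to 10.7 TPM (median 7.90) at 30 nM and from 2.74 to 11.8 (median 5.21) at 300 nM. The log2 difference was -0.32 (interval -0.52 to -0.13, adjusted p = 0.814), negative in 5 of 6 ligands. CDKN1A was chosen by its p for dose, so these signs describe it only. With SAR439859 it averaged 8.82 ± 0.888 and 4.73 ± 0.379 TPM, without overlap, and with AZD9496 9.31 ± 1.38 and 10.6 ± 1.16. Sterol and fatty acid genes, which respond to membrane-active cationic drugs, gave 0 called of 23 cholesterol synthesis genes and 0 of 12 fatty acid and LXR target genes. For MSMO1, a sterol demethylation enzyme gene, the difference was -0.15 (interval -0.30 to 0.00). At an unadjusted p below 0.05, 0 of the 23 and 1 of the 12 were lower, beside 5.42% of all genes. After scaling the counts were the same, beside 1.78% of all genes. The 1 gene was MYLIP (log2 difference -0.13, interval -0.22 to -0.05, adjusted p = 0.814). Of 24 lysosome genes 0 were called and all 24 intervals lay within ±0.5.

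Lists for receptor turnover and gene expression held no called gene either. At an unadjusted p below 0.05, 5.42% of all genes were lower and 0.611% higher, shares that stand beside each count of this paragraph. Proteasome subunit genes had 0 of 30 called, 3 lower at an unadjusted p below 0.05 (PSMB2, PSMB3 and PSMD1) and 30 of 30 intervals within ±0.5. After scaling 0 of them were lower and 1 higher at that threshold, beside 1.78% and 1.67% of all genes. Genes for ubiquitin ligases and their partners that act on the receptor had 0 of 12 called. Of these 1 was lower at an unadjusted p below 0.05, UBE2C, which is also in the mitosis list, and 0 after scaling. Receptor coregulators had 0 of 17 called, with HDAC1, a histone deacetylase gene, TBL1XR1, a corepressor subunit gene, and KMT2C, a histone methyltransferase gene, lower at an unadjusted p below 0.05 as deposited and 0 after scaling. Cytosolic ribosomal protein genes had 0 of 53 called and a median of -0.03. Ribosome biogenesis genes had 0 of 22 called and a median of -0.09, -0.04 after scaling. At an unadjusted p below 0.05, 5 of the 22 were lower and 0 higher. After scaling 2 of the 22 were lower and 0 higher, beside 1.78% and 1.67% of all genes. Their leading member DKC1, the gene for the pseudouridine synthase dyskerin, averaged 99.9 ± 12.9 TPM at 30 nM and 86.6 ± 12.4 at 300 nM (log2 difference -0.20, interval -0.33 to -0.08, adjusted p = 0.814), negative in 6 of 6 ligands. DKC1 was chosen by its p for dose, so these signs describe it only.

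Among luminal identity genes 0 of 18 were called, and KRT18, a keratin gene, and XBP1 were among the members with an unadjusted p below 0.05. XBP1, a transcription factor gene of the secretory pathway, averaged 295 ± 52.5 TPM at 30 nM and 263 ± 45.0 at 300 nM (log2 difference -0.17, interval -0.29 to -0.05, adjusted p = 0.814). Interferon genes had 0 of 24 called. IFI27, an interferon-induced gene, had the most negative value of the members of any list (-0.44), with a wide interval of -0.92 to 0.04. Replication-dependent histone genes, whose transcripts share sequence, had the lowest list median (-0.12, and -0.06 after scaling) with 0 of 20 called, and their values are uncertain for that reason.

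**Figure D4:**
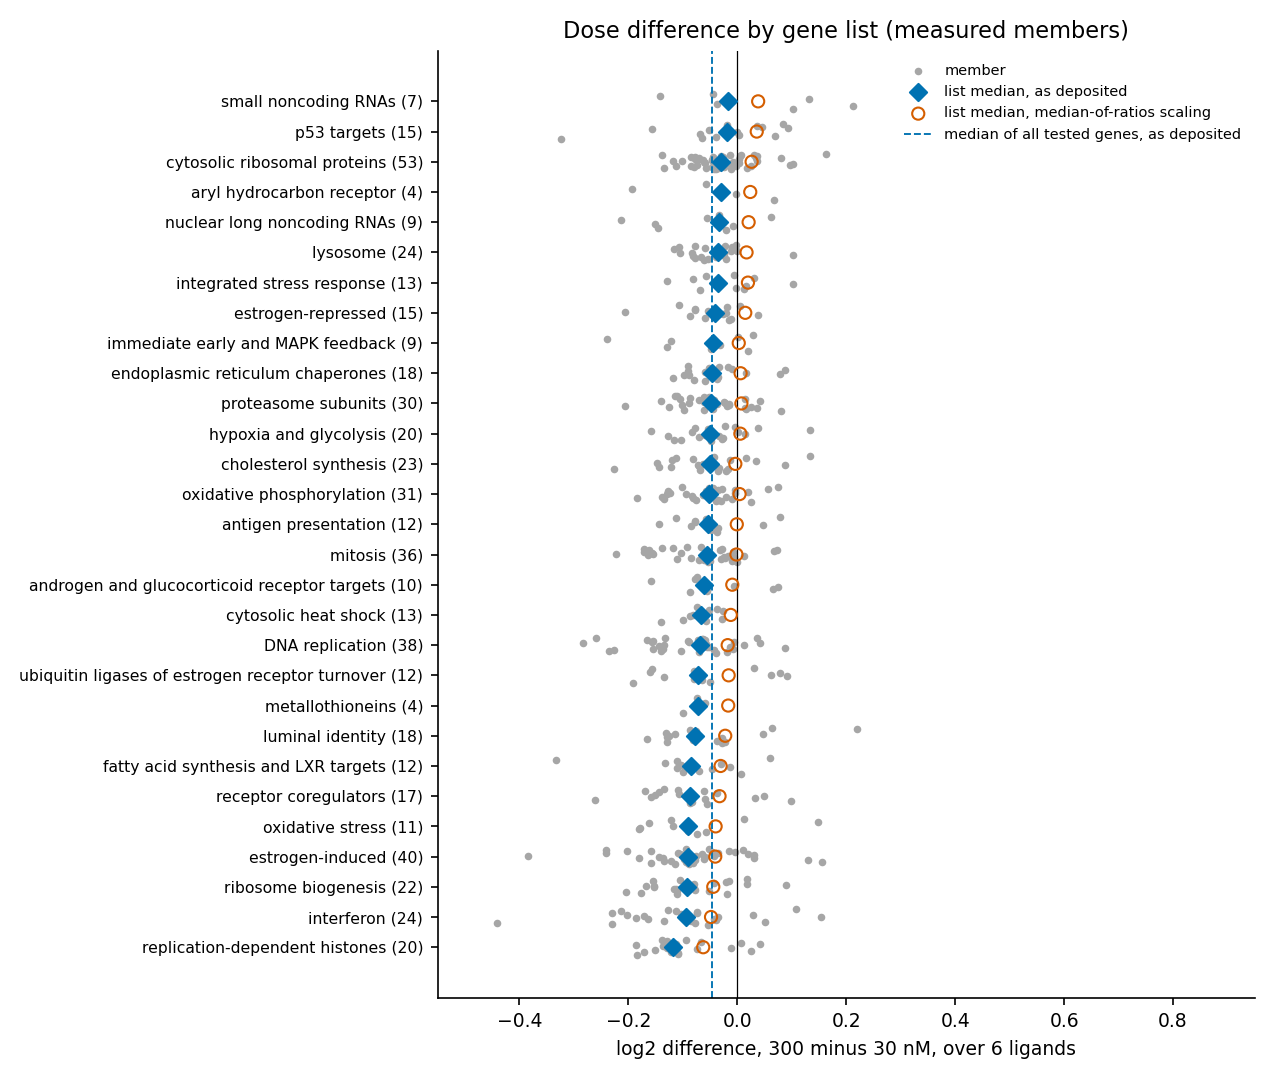
Log2 difference between 300 and 30 nM over 6 ligands (x axis) for each measured member (grey) of the lists with at least 3 measured genes (rows, number of genes in brackets), with the list median as deposited (blue diamonds) and after median-of-ratios scaling (open circles). Medians lie from -0.12 to -0.02 as deposited, close to the dashed median of all genes at -0.05, and move right by a similar step after scaling.

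The genes with the smallest p values on the lower side had small differences. These genes, and those of the higher side below, were chosen by their p for dose. Their signs, overlaps and shares of variation therefore describe them and support no claim of a dose difference. HMCES, which encodes a protein that shields abasic sites in DNA (chromosome 3, 129278828 to 129306186), ranged from 15.3 to 26.2 TPM (median 17.9) at 30 nM and from 11.4 to 21.5 (median 15.1) at 300 nM, with 16.5 to 19.3 in DMSO. The doses overlapped over all ligands, but the 300 nM libraries lay below the 30 nM ones within fulvestrant, SAR439859 and AZD9496. The log2 difference was -0.24 (SE 0.0518, interval -0.35 to -0.14), negative in 6 of 6 ligands, with an unadjusted p of 4.71e-05 and an adjusted p of 0.67. Over the alternative settings its adjusted p ran from 0.0703 to 0.999 and its difference from -0.27 to -0.19.

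TIPARP (chromosome 3, 156673235 to 156706770) ranged from 8.10 to 10.9 TPM (median 9.27) at 30 nM and from 6.42 to 9.29 (median 8.11) at 300 nM, with 8.996 to 13.1 in DMSO. Its log2 difference was -0.19 (SE 0.0472, interval -0.29 to -0.10, unadjusted p = 0.00025, adjusted p = 0.67), and after scaling -0.14. Dose took 40.9% of its variation, the highest share of the 14404 genes tested, and ligand 8.55%. The libraries of fulvestrant, GDC-0810, AZD9496 and GDC-SAR did not overlap between doses. The difference was largest with AZD9496, at 10.1 ± 0.263 and 7.65 ± 1.48 TPM, and smallest with AZD-SAR, at 8.96 ± 0.628 and 8.44 ± 0.575. CYP1A1, which shares its inducing receptor, had values of the opposite sign with SAR439859, GDC-0810 and AZD-SAR.

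PQBP1, a gene for a splicing-associated nuclear protein (chromosome X, 48897912 to 48903143), averaged 43.5 ± 4.61 TPM at 30 nM and 36.8 ± 4.87 at 300 nM (log2 difference -0.24, interval -0.36 to -0.12). SYNPO2, an actin-binding protein gene (chromosome 4, 118850688 to 119061247), averaged 19.6 ± 2.80 and 16.6 ± 2.41 TPM (log2 difference -0.23, interval -0.34 to -0.11). CTA-29F11.1, a symbol without a match in the annotation used, averaged 6.15 ± 1.31 and 4.31 ± 1.30 TPM (log2 difference -0.45, interval -0.67 to -0.23). All were negative in 6 of 6 ligands, overlapped between doses and had an adjusted p of 0.67. NDUFS1, a respiratory complex I subunit gene and the leading member of the oxidative phosphorylation list, had a difference of -0.18 (interval -0.28 to -0.09, adjusted p = 0.814). That list had 0 of 31 called.

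On the higher side the differences were larger and the spread wider. CARS2, the mitochondrial cysteinyl-tRNA synthetase gene (chromosome 13, 110641412 to 110713603), ranged from 9.18 to 20.5 TPM (median 14.03) at 30 nM and from 8.74 to 44.7 (median 20.3) at 300 nM, with 13.99 to 22.4 in DMSO. The doses overlapped, except within SAR439859 and AZD-SAR. It averaged 13.7 ± 3.22 TPM at 30 nM and 19.5 ± 8.32 at 300 nM (log2 difference 0.41, interval 0.13 to 0.70, adjusted p = 0.814). The difference was largest with SAR439859, at 11.8 ± 2.47 and 30.0 ± 12.8 TPM, and without its 30 nM libraries the difference was 0.25 (adjusted p = 0.895). ZFP1, a zinc finger gene (chromosome 16, 75148492 to 75172236), averaged 5.56 ± 1.45 and 7.35 ± 2.49 TPM (log2 difference 0.33, interval 0.09 to 0.56, adjusted p = 0.814), below the 7.23 to 20.3 TPM in DMSO in most libraries of either dose. RP11-505K9.1, without a match in the annotation, had a difference of 0.58 (interval 0.17 to 0.99). It was listed at 0 in SAR439859 30 nM replicate 3, without which the difference was 0.41 (adjusted p = 0.628). CSNK1A1P1, a processed pseudogene of casein kinase 1 alpha whose reads may be shared with its parent gene, had 0.62 (interval 0.15 to 1.08) and is uncertain.

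**Figure D5:**
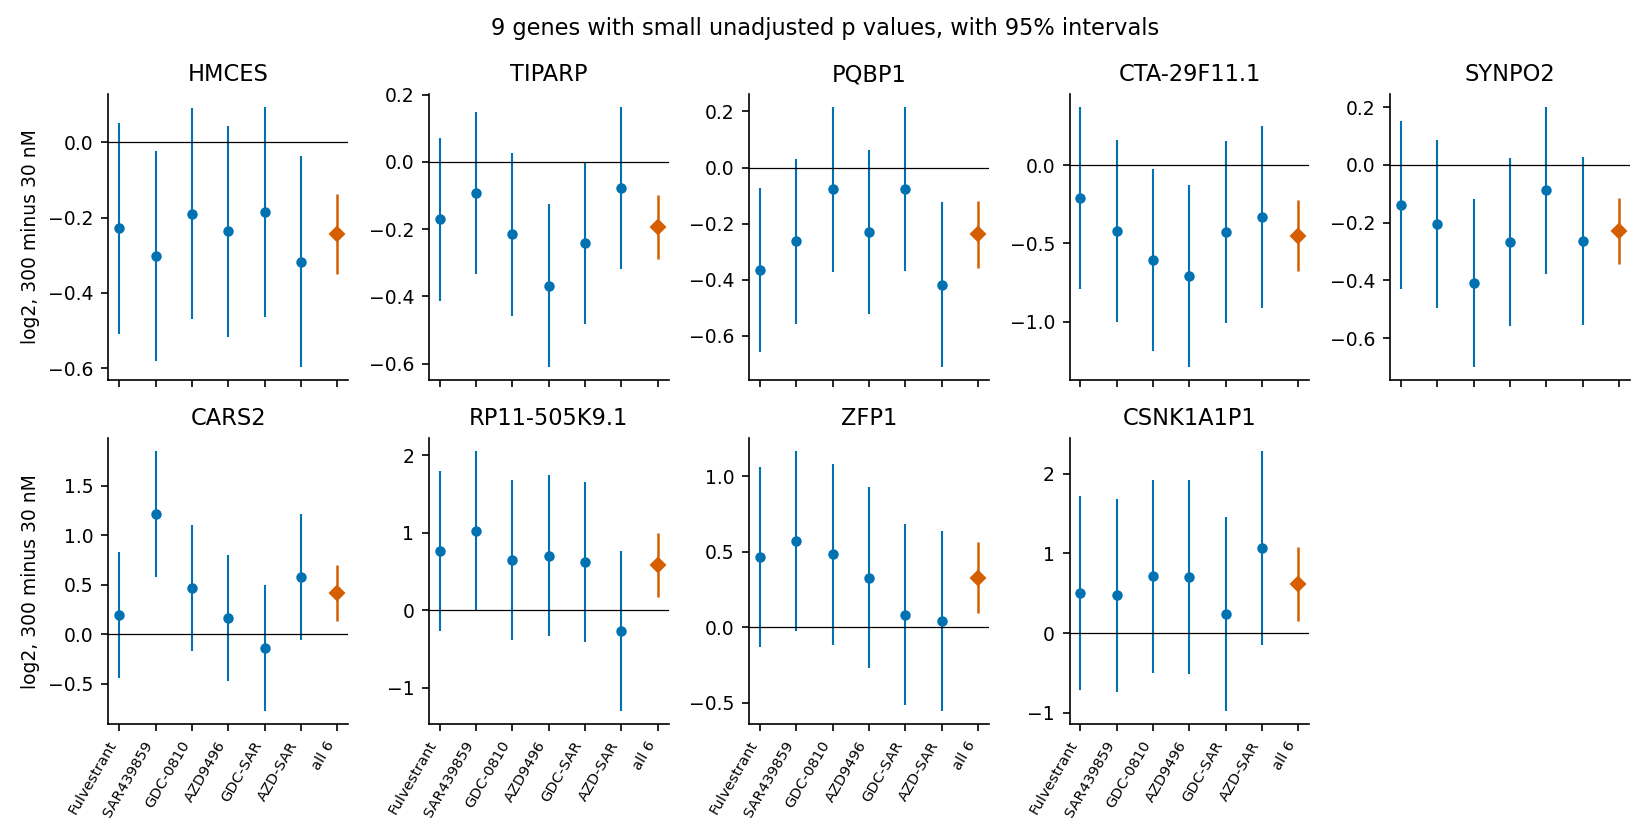
Log2 difference between 300 and 30 nM (y axes, own range for each gene) within each ligand (blue, 3 against 3 libraries) and over all 6 ligands (orange), with 95% intervals from limma, for 9 genes with small p values, 5 lower and 4 higher at 300 nM. The 5 genes of the upper row lie below 0 in every ligand, whereas the lower row has wide intervals and, for CARS2 and RP11-505K9.1, 1 ligand below 0. None was called.

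Whether 1 dose term describes all ligands was asked with the interaction of dose and ligand. By limma's F test 0 genes (0%) were called, 464 (3.22%) had an unadjusted p below 0.05 and the smallest adjusted p was 0.431. The leading gene was DNAH14, an axonemal dynein heavy chain gene (chromosome 1, 224896262 to 225399292, unadjusted p = 2.99e-05). It averaged 5.81 ± 1.38 TPM at 30 nM and 14.4 ± 4.40 at 300 nM with GDC-0810, but 11.3 ± 1.43 and 6.60 ± 1.33 with SAR439859, in each case without overlap. Over 6 ligands these values offset each other, giving -0.08 (interval -0.35 to 0.19). OCEL1, a gene for an occludin-domain protein, averaged 139 ± 28.8 and 83.9 ± 14.5 TPM with SAR439859 and 101.8 ± 2.31 and 131 ± 17.7 with AZD9496. UROD, a heme synthesis enzyme gene, averaged 33.6 ± 1.98 and 23.6 ± 3.03 TPM with GDC-0810 and 31.3 ± 1.14 and 39.1 ± 4.25 with AZD-SAR. SYBU, the syntabulin gene, averaged 4.18 ± 0.793 and 7.98 ± 1.68 TPM with AZD-SAR and 6.50 ± 1.05 and 4.59 ± 0.406 with GDC-SAR. NNT-AS1, an antisense RNA that could share reads with its partner where strand was not used in counting, averaged 3.55 ± 0.839 and 7.81 ± 2.14 with GDC-0810 and 6.76 ± 0.833 and 2.81 ± 0.794 with AZD-SAR. All 5 genes were chosen by their interaction p, so that these values describe them and support no claim that the ligands differ.

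Read ligand by ligand, with 3 against 3 libraries and a median SE of 0.24, 0 genes (0%) were called for any ligand. The counts at an unadjusted p below 0.05 were 225 (1.56%) with fulvestrant, 1600 (11.1%) with SAR439859, 459 (3.19%) with GDC-0810, 582 (4.04%) with AZD9496, 334 (2.32%) with GDC-SAR and 589 (4.09%) with AZD-SAR. The high count with SAR439859 came with the libraries that stood apart, and its smallest adjusted p was 0.0733. Without its 30 nM replicate 2 the count of calls was 418, without replicate 1 it was 5, and without 300 nM replicate 3 it was 2. These counts used a spread shared by all groups. With only the 6 SAR439859 libraries in the fit, 473 genes had an unadjusted limma p below 0.05. In that fit 0 were called, and the smallest adjusted p was 0.476. The part of those libraries in the count was not tested beyond this.

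The gene with the smallest p for SAR439859 was BACH1-IT3, an intronic transcript of the BACH1 locus, at 1.47 ± 1.99 TPM at 30 nM and 8.46 ± 3.07 at 300 nM (log2 difference 2.19, interval 1.37 to 3.02). It was listed at 0 in replicate 3 of the 30 nM group. For GDC-0810 it was RP11-465N4.4, without an annotation match, at 15.4 ± 1.65 and 7.52 ± 1.89 TPM (log2 difference -0.96, adjusted p = 0.0742). For fulvestrant it was NDUFAF5, a complex I assembly factor gene, at 19.4 ± 1.98 and 9.93 ± 0.633 TPM (log2 difference -0.90). With AZD-SAR the same gene stood at 13.3 ± 2.47 and 20.5 ± 4.93 TPM. For AZD9496 it was CDC40, a splicing factor gene, at 16.5 ± 3.16 and 6.38 ± 5.25 TPM (log2 difference -1.47). For GDC-SAR it was APITD1-CORT, a readthrough transcript and therefore uncertain, at 18.5 ± 3.15 and 10.1 ± 3.64 TPM (log2 difference -0.85). For AZD-SAR it was MRPS18B, a mitochondrial ribosomal protein gene, at 28.6 ± 8.15 and 14.7 ± 1.88 TPM (log2 difference -0.88). Each of the 6 genes had values of both signs across the ligands.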

How the data were processed

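Stranded libraries from total RNA were sequenced, per the labels' protocols, and reads were aligned with STAR to GRCh38, per the submitters' processing notes. The annotation, the counting tool and all software versions behind the table were not given in the sources used here. In GEO the authors deposited 1 table of TPM values, 46706 symbols by 39 libraries. TPM fixes each library's total, so sequencing depth is unknown, and changes in a few abundant symbols move all others. Groups held 3 libraries by their labels, although the design text mentions duplicates.

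The 14404 symbols averaging 1 TPM or more across all 39 libraries entered the test as log2(TPM + 1), a scale that understates the change of low genes. Limma 3.58.1 in R 4.3.3 was fitted to 36 libraries with ligand and dose terms (29 residual degrees of freedom, intensity trend), and with a mean per group (24) for the interaction and within-ligand contrasts. Calls were Benjamini-Hochberg adjusted p < 0.05 over all genes tested. Library measures used 100000 permutations of dose within ligand. The script was tested on simulated data. Positions and types came from GENCODE release 29 (82.41% of tested symbols matched).

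Members and the 31 gene lists were chosen with earlier results of these data known. Named genes were ESR1, PGR, GREB1, TFF1, CCND1, MYC, MKI67 and CYP1A1, up to 15 called genes each way or else the 5 smallest p values each way, the 5 smallest interaction p values and the smallest within each ligand (these at 5 TPM or more), and up to 3 leading members per list, stopping early. Some results that the rule covers are not reported here. Alternatives were another pseudocount, filter, scaling or variance model, and leaving out libraries or ligands.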

Additional observations from a re-analysis of the deposited data

How the results depend on the processing

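The shared dose term gave 0 called genes in each of 55 alternatives, 36 of which left out 1 library, with smallest adjusted p values from 0.0703 (without GDC-SAR 300 nM replicate 3) to 0.999 (median-of-ratios scaling). None of 114 named genes was called in any of them. The genes at an unadjusted p below 0.05 numbered 869, but 497 after median-of-ratios scaling and 1575 without the expression filter (39091 genes). Without that filter the interaction gave 5 calls, and the dose contrast gave 1 with fulvestrant, 1 with SAR439859, 6 with AZD9496, 14 with GDC-SAR and 10 with AZD-SAR, against 0 for each with the filter. Array weights gave 1 call with SAR439859 and 9 with GDC-0810, and 4741 genes among ligands against 3099. Fits on only the 6 libraries of a ligand gave 2 calls with AZD9496, 1 with GDC-SAR and 1 with AZD-SAR. Leaving out each library in turn gave 0 to 418 calls with SAR439859, 0 to 4 for the interaction (4 without SAR439859 30 nM replicate 2) and 0 to 1 with GDC-0810, AZD9496 and GDC-SAR. Calls with GDC-0810 came without 30 nM replicate 3 or 300 nM replicate 1, the call with AZD9496 without 30 nM replicate 2, and those with GDC-SAR without 30 nM replicate 1 or 2 or 300 nM replicate 3. The share of TPM in the 100 most abundant symbols differed by 1.05 to 1.88 points. Without AZD9496 30 nM replicate 1 it was 1.43 points (p = 0.0515, permutation test). The causes of these changes were not tested. The labels give no replicate numbers that pair libraries. A replicate block by position within the group, added after the data were seen, gave 0 dose calls (1040 genes at an unadjusted p below 0.05) and 4121 genes among ligands. Libraries in the same position correlated by a mean of 0.0685 in their deviations (lowest -0.157), and those in other positions by -0.0342, and 26 of 36 were closest to their own position. Depth is unknown, and precision is poorest under 5 TPM, where 69.2% of intervals lay within ±0.5.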
